A study of Caenorhabditis elegans with 8 samples.

Results

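The inducible cytosolic heat shock genes of Caenorhabditis elegans were described in whole worms exposed to magnolol, honokiol or DMSO. They were chosen by symbol: hsp-16.1, hsp-16.48, hsp-16.41, hsp-70 and F44E5.4 are 5 of the 18647 symbols in the read count table. A row is a line of counts, and 3 of the symbols stand on 2 rows each, so the genes cover 8 of 21309 rows. All 8 rows passed the filter on low counts and are among the 16813 rows tested. Worms received 200 µM magnolol (3 libraries) or 200 µM honokiol (2 libraries) for 1 h, or DMSO as the control (3 libraries). Magnolol and honokiol are biphenols of Magnolia bark and positional isomers of each other. Strain, stage and the number of worms per library were not given in the sources used here. Nor is it stated that replicates came from different cultures, and a p-value then covers only the spread of these libraries, which could be technical.

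Heat shock proteins keep other proteins from aggregating when they unfold. In C. elegans the heat shock factor HSF-1 switches on a set of genes that are nearly silent in unstressed worms, among them the small heat shock proteins of the HSP-16 family and stress-inducible members of the HSP70 family. HSP-16 proteins hold unfolded proteins without using ATP, while HSP70 proteins refold them in cycles of ATP hydrolysis. The constitutive relatives hsp-1 (HSP70) and hsp-90 (HSP90) are expressed at all times.

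Total counts were 30274330 to 35888186 per library. Levels are in CPM, counts-per-million of the TMM-scaled library, and changes are log2 fold changes ± SE from a fit of all 8 libraries. A row is called here when its p-value, adjusted by the Benjamini-Hochberg method over all 16813 rows in edgeR's quasi-likelihood test, lies under 0.05. As a check of the whole-organism label, 24 measured markers of 8 tissues, cell types or yolk were present in each library at 4.66 CPM or more, and 0 of them were called by edgeR in any of the 3 comparisons. At an unadjusted p under 0.05 in edgeR the markers numbered 3 of 24 for magnolol over control, 1 of 24 for honokiol over control and 10 of 24 for magnolol over honokiol. Of all tested rows 15.4%, 10.8% and 2699 of 16813 lay under that level in the same 3 comparisons. DESeq2 and limma-voom called 1 marker each for magnolol over control and 0 in the other comparisons. Summed levels did not overlap between magnolol and honokiol libraries for 5 of the 8 lists. Among single tested rows, 2750 of 16813 had all magnolol libraries above both honokiol libraries. The opposite order was not counted, and neither was a share for sums of rows. Magnolol libraries were higher for yolk (19058 to 29372 CPM, against 10911 to 17503 CPM in honokiol libraries), body wall muscle (5708 to 9907 against 3671 to 5415), pharynx (703 to 1026 against 468 to 676) and germ line (1121 to 1348 against 914 to 1110), and lower for sperm (131 to 134 against 139 to 151). In control libraries these sums were 15929 to 18949, 5286 to 6373, 666 to 704, 1037 to 1078 and 133 to 155 CPM, below the magnolol libraries for yolk and germ line and overlapping them for the others. All magnolol libraries lay above all controls in 11.9% of single tested rows. The part of the marker sums in the results was not tested.

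In the WBcel235 annotation of Ensembl release 115 the genes lie in compact groups. The symbols hsp-16.1 and hsp-16.48 each name 2 protein-coding loci on chromosome V, arranged as divergent pairs. One pair is hsp-16.1 at chrV:9087293-9087782 (minus strand) and hsp-16.48 at chrV:9088131-9088617 (plus strand), with 348 bases between them. The other is hsp-16.48 at chrV:9089280-9089766 (minus strand) and hsp-16.1 at chrV:9090077-9090604 (plus strand), with 310 bases between. Elsewhere on that chromosome hsp-16.41 (chrV:1805178-1805875, plus strand) lies 220 bases from hsp-16.2, which is transcribed in the other direction and is not analysed here. The HSP70 genes are F44E5.4 at chrII:11757107-11759311 and hsp-70 at chrI:9320325-9322519, both on the minus strand. F44E5.4 is also one side of a divergent pair, 350 bases from F44E5.5. Each small heat shock gene has 2 exons with 432 to 640 bases in all, F44E5.4 has 2 exons with 2096 bases, and hsp-70 has 3 exons with 2057 bases.

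The rows of a duplicated symbol carried almost the same counts in every library. The largest difference between rows was 11 counts for hsp-16.1 (gene35931 and gene35934), 23 for hsp-16.48 (gene35932 and gene35933) and 33 for F44E5.4 (gene8423 and gene8424), at most 1.63%, 1.86% and 3.28% of their mean. The treatment of reads that match several loci was not given in the sources used here, and neither was the locus that each row counts. F44E5.4 names a single locus in the annotation although it has 2 rows. Whether either of them counts its divergent neighbour F44E5.5 was not tested. The rows are therefore uncertain as separate genes, and a sum over a symbol's rows may hold a read more than once.

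The first comparison asked which of these genes differed after an hour of magnolol. All 8 rows, thus all 5 genes, rose with magnolol and none fell. Of all rows tested, 2.16% were called higher, 0.702% lower and 2.87% in either direction. That last share stands for 482 rows, and their number was 294 without magnolol 3 and 762 in DESeq2. The rises ran from 2.14 to 4.42 on the log2 scale with a median of 2.74, beside a median of 0.0027 over all tested rows. In each of the 8 rows all 3 magnolol libraries lay above all 3 controls, an order that 11.9% of tested rows showed. In RNA from whole worms, more cells expressing a gene and more RNA per cell cannot be told apart.

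**Figure D1:**
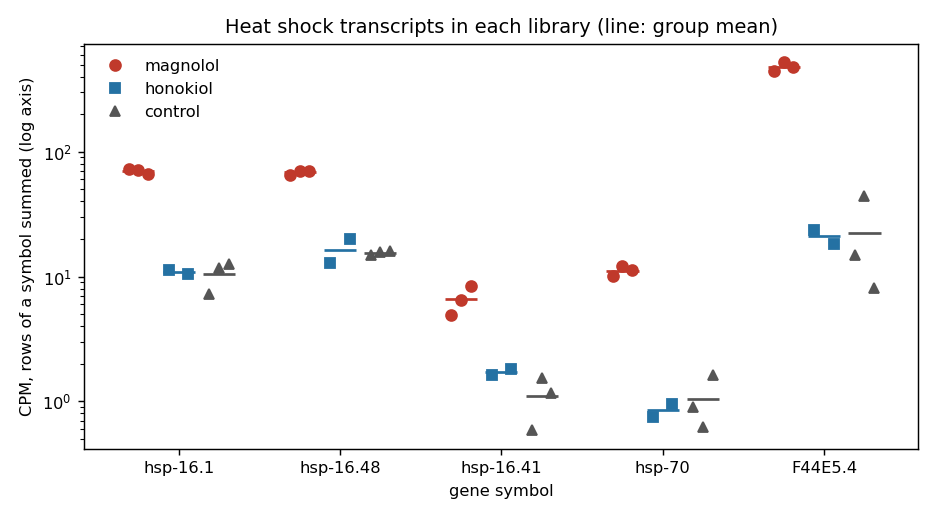
Level of each heat shock gene in every library, as CPM with the rows of a symbol summed, on a log axis. Points are libraries and short lines are group means; for each gene the 3 magnolol libraries lie above the honokiol and control libraries, and the control libraries of F44E5.4 spread from 8.13 to 44.3 CPM.

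Of the HSP-16 genes, hsp-16.1 stood at 73.1, 70.9 and 66.8 CPM in magnolol 1 to 3, summed over its rows, against 7.18, 11.8 and 12.63 CPM in controls 1 to 3. The groups do not overlap, and control 1 is the lowest of the controls. Its rows changed by 2.74 ± 0.17 (gene35931, edgeR adjusted p = 7.95e-08) and 2.74 ± 0.18 (gene35934, edgeR adjusted p = 8.34e-08), or 6.68-fold for the sum (95% confidence interval 5.25 to 8.51).

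Its divergent partner hsp-16.48 was at 65.5, 70.3 and 69.9 CPM in magnolol 1 to 3, against 14.9, 15.8 and 16.0 CPM in controls 1 to 3. Both groups were tight, with standard deviations of 2.71 and 0.57 CPM (n = 3 each). Both rows, gene35932 and gene35933, changed by 2.14 ± 0.15 (edgeR adjusted p = 1.93e-07 for each), and the sum by 4.40-fold (3.60 to 5.38), the smallest rise of the 5 genes.

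The related gene hsp-16.41 was less abundant. It had 166, 202 and 296 counts in magnolol 1 to 3, or 4.95, 6.50 and 8.37 CPM. In controls 1 to 3 it had 20, 52 and 35 counts, or 0.584, 1.55 and 1.16 CPM. The lowest magnolol library is still well above the highest control. The change was 2.59 ± 0.32, or 6.03-fold (3.75 to 9.69), with edgeR adjusted p = 1.19e-04.

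The HSP70 genes had the largest fitted rises, though the interval of hsp-70 overlaps those of hsp-16.1 and hsp-16.41. F44E5.4 reached 441.8, 520.6 and 476.6 CPM in magnolol 1 to 3, summed over its rows, against 14.8, 44.3 and 8.13 CPM in controls 1 to 3. The controls differed among themselves by 5.44-fold, with control 2 high, whereas the magnolol libraries differed by 1.18-fold. Its rows changed by 4.42 ± 0.41 (gene8423, edgeR adjusted p = 5.28e-06) and 4.41 ± 0.40 (gene8424, edgeR adjusted p = 3.90e-06), or 21.3-fold for the sum (11.4 to 40.1). Without control 2 those changes were 5.40 and 5.35, so the size of the F44E5.4 rise depends on that library.

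The hsp-70 gene had 339, 374 and 399 counts in magnolol 1 to 3, or 10.11, 12.04 and 11.28 CPM. In controls 1 to 3 it had 31, 21 and 49 counts, or 0.905, 0.625 and 1.62 CPM. It changed by 3.42 ± 0.28, or 10.7-fold (7.05 to 16.17), with edgeR adjusted p = 1.21e-06. Control 2, the library with most F44E5.4, had the least hsp-70 of the controls, and control 3 had the most hsp-70 and the least F44E5.4.

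The second comparison put honokiol against the same DMSO libraries, so it shares its controls with the first. None of the 8 rows was called, where 3.04% of all tested rows were higher, 0.393% lower and 3.43% called in either direction. In edgeR 0 of the 8 had an unadjusted p under 0.05, a level that 10.8% of tested rows reached. DESeq2 and limma-voom also called 0. The changes ran from -0.30 to 0.65 with a median of 0.05, beside a median of -0.01 over all tested rows. The smallest edgeR adjusted p was 0.613.

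With honokiol, F44E5.4 stood at 23.5 and 18.4 CPM in libraries 1 and 2, inside the range of the controls. hsp-70 had 25 and 32 counts, or 0.742 and 0.949 CPM, likewise inside it. The hsp-16.1 sum was 11.3 and 10.5 CPM, within the 7.18 to 12.63 CPM of the controls. For hsp-16.48 the sum was 12.8 and 20.0 CPM, on either side of all 3 controls. Only for hsp-16.41, at 1.63 and 1.81 CPM, did both honokiol libraries exceed every control, an order found in 13.1% of tested rows.

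The 95% confidence intervals of the honokiol fold over control show which sizes of change these libraries could not separate from none. For the hsp-16.1 sum it ran from 0.792 to 1.36 and for the hsp-16.48 sum from 0.842 to 1.32. It was wider for hsp-70 (0.482 to 1.37), hsp-16.41 (0.916 to 2.70) and F44E5.4 (0.489 to 1.78 for the sum). Without control 2 the changes of its rows gene8423 and gene8424 were 0.89 and 0.83, with edgeR adjusted p = 0.0588 and 0.0734.

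**Figure D2:**
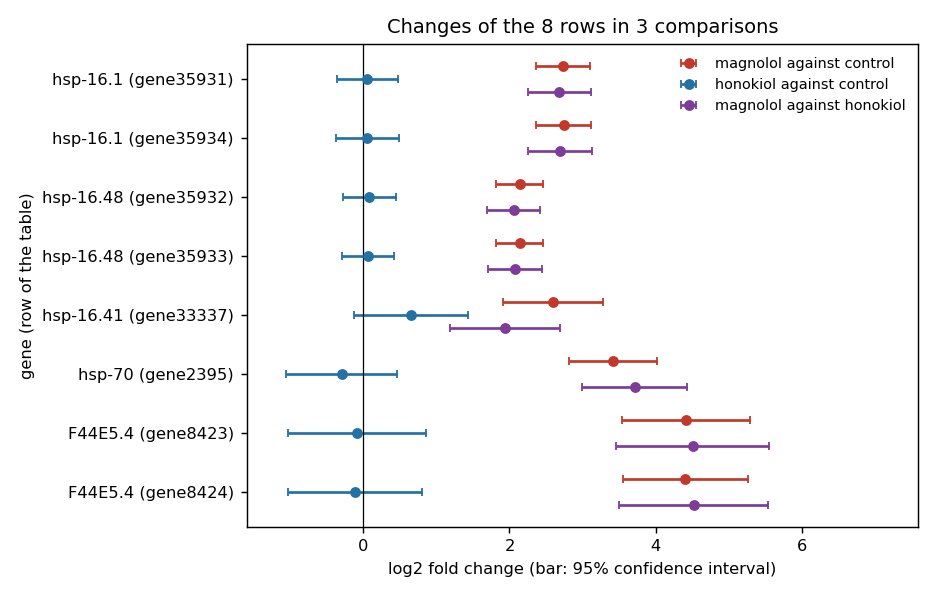
Log2 fold change of each of the 8 rows in the 3 comparisons, with bars for the 95% confidence interval. Red and purple points (magnolol over control and magnolol over honokiol) lie between 1.94 and 4.52 with intervals above 0, and the intervals of the blue points (honokiol over control) include 0 in all 8 rows.

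The isomers, the single pair of compounds here, were then compared at the same dose and time. All 8 rows were higher with magnolol than with honokiol, by 1.94 to 4.52 on the log2 scale. Of all tested rows, 0.285% were called higher with magnolol, 1.24% lower and 1.53% in either direction. That background moved with single libraries: 257 rows were called in all, against 127 without honokiol 2, 574 without honokiol 1 and 162 without magnolol 3. The magnolol libraries all lay above both honokiol libraries in each of the 8 rows, as they did in 2750 of 16813 tested rows. Ranked by fold change among the 48 rows called higher with magnolol than with honokiol, the heat shock rows held places 1 to 5, 8, 9 and 11. Places 1 and 2 were both F44E5.4, 4 and 5 both hsp-16.1, and 8 and 9 both hsp-16.48, so the places stand for 5 symbols. In the ranking of the 364 rows called higher with magnolol than in control the heat shock rows lay lower, between places 22 and 76.

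Per gene, F44E5.4 averaged 479.6 ± 39.5 CPM in magnolol libraries (SD, n = 3) and 20.96 ± 3.64 CPM in honokiol libraries (SD, n = 2), a 22.9-fold difference of the sums (10.7 to 48.7). hsp-70 averaged 11.15 ± 0.972 CPM in magnolol libraries and 0.846 ± 0.147 CPM in honokiol libraries, or 13.1-fold (7.96 to 21.6, edgeR adjusted p = 1.15e-05). The sums of hsp-16.1 and hsp-16.48 differed by 6.44-fold (4.86 to 8.53) and 4.18-fold (3.32 to 5.27). The difference for hsp-16.41 was the smallest, 1.94 ± 0.35 or 3.84-fold (2.27 to 6.48), with edgeR adjusted p = 0.00839. It passed the threshold less firmly than the others: without magnolol 3 its edgeR adjusted p was 0.0625 and without honokiol 2 it was 0.104.

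Levels of different genes were set side by side as CPM per kilobase of annotated exon, averaged over the rows of a symbol. With magnolol the order was F44E5.4 (114 ± 9.35 CPM per kb, SD, n = 3), hsp-16.48 (79.4 ± 3.10), hsp-16.1 (76.9 ± 3.54), hsp-16.41 (10.3 ± 2.67) and hsp-70 (5.42 ± 0.473). The hsp-16.48 and hsp-16.1 levels differed by less than their spread. In control the order was hsp-16.48 (18.0 ± 0.667 CPM per kb, n = 3), hsp-16.1 (11.5 ± 3.21), F44E5.4 (5.35 ± 4.59), hsp-16.41 (1.71 ± 0.757) and hsp-70 (0.510 ± 0.250). The F44E5.4 levels of single control libraries overlapped those of hsp-16.1 and of hsp-16.41. With honokiol it was hsp-16.48 (18.97 ± 5.85 CPM per kb, n = 2), hsp-16.1 (11.9 ± 0.623), F44E5.4 (5.001 ± 0.867), hsp-16.41 (2.69 ± 0.196) and hsp-70 (0.411 ± 0.0713). Averaged per row, F44E5.4 was thus the most abundant of the 5 per length with magnolol and the third in the other groups. An order of whole symbols could differ. hsp-16.1 and hsp-16.48 name 2 loci each and F44E5.4 names 1, and the locus that each row counts was not given.

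Against the constitutive HSP70 gene hsp-1 the inducible transcripts remained scarce. Per kilobase, the mean F44E5.4 row was at 8.82%, 7.63% and 9.11% of hsp-1 in magnolol 1 to 3, at 0.483% and 0.597% in honokiol 1 and 2, and at 0.327%, 1.05% and 0.175% in controls 1 to 3. hsp-70 was at 0.360% to 0.440% of hsp-1 with magnolol, 0.0310% and 0.0628% with honokiol and 0.0301% to 0.0709% in control.

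The make-up of the heat shock counts also differed. Relative to unscaled library totals, the 8 rows together took 600.9 to 623.7 CPM in magnolol libraries, 49.5 and 55.4 in honokiol libraries and 39.1 to 75.3 in control libraries. The F44E5.4 rows supplied 74.2% to 76.5% of these with magnolol, 47.0% and 35.6% with honokiol and 20.6% to 59.8% in control. These are shares of counts, uncorrected for exon length, which is 2096 bases in F44E5.4 and 432 to 640 in the hsp-16 genes. Symbols on several rows enter with all of them.

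**Figure D3:**
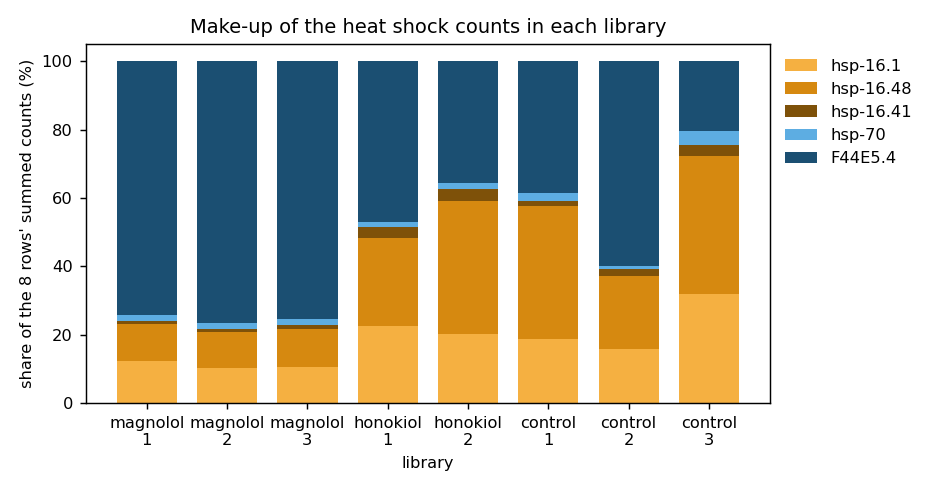
Share of each gene in the summed counts of the 8 heat shock rows, as a percentage, for each library, uncorrected for exon length. F44E5.4 (dark blue) takes 74.2% to 76.5% in the 3 magnolol libraries, while its share in control libraries runs from 20.6% in control 3 to 59.8% in control 2.

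Ratios within a library show how evenly the genes rose. The count of hsp-16.1 per row relative to hsp-16.48 was 1.12, 1.01 and 0.955 in magnolol 1 to 3, 0.882 and 0.526 in honokiol 1 and 2, and 0.481, 0.746 and 0.789 in controls 1 to 3. Magnolol libraries thus lay above all others in this ratio. The difference from control was 0.64 on the log2 scale, with p = 0.1 in a two-sided exact permutation test, the smallest p that 3 against 3 libraries can give. The ratio of F44E5.4 per row to hsp-70 was 21.9, 21.6 and 21.1 in magnolol 1 to 3, 15.9 and 9.69 in honokiol 1 and 2, and 8.19, 35.5 and 2.51 in controls 1 to 3. Here the control libraries spread on both sides of the magnolol libraries (exact permutation p = 0.4, two-sided). The hsp-16.41 count relative to hsp-16.1 overlapped between magnolol and control, with 0.135 to 0.251 in magnolol libraries and 0.163 to 0.263 in control libraries (exact permutation p = 0.8). The 3 ratios were chosen with the levels known, and adjusted over them by the Benjamini-Hochberg method these exact permutation p-values were 0.3, 0.6 and 0.8.

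The wider chaperone network was read from 7 lists of genes. Of 43 tested rows 2 rose with magnolol, 1 fell and 40 were not called, beside the 2.16% of all tested rows called higher and 0.702% called lower. Their median change was 0.14, beside 0.0027 over all tested rows, and 12 had an unadjusted p under 0.05 in edgeR, a level that 15.4% of all tested rows reached. With honokiol over control edgeR called 0 of 43 (median -0.04, beside -0.01), 3 had an unadjusted p under 0.05 (10.8% of all tested rows), and DESeq2 and limma-voom called 0. For magnolol over honokiol edgeR called 0 of 43 (median 0.16, beside -0.01) and 15 had an unadjusted p under 0.05 (2699 of all 16813 tested rows), while DESeq2 called 2 and limma-voom 1, all among the other cytosolic HSP70 and HSP110 rows.

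Of 8 other small heat shock rows 1 rose with magnolol and 1 fell. hsp-17, a small heat shock gene, was at 33.5, 33.4 and 33.1 CPM in magnolol 1 to 3, against 21.2, 17.5 and 23.2 CPM in controls 1 to 3, and changed by 0.69 ± 0.11 (edgeR adjusted p = 0.00228). The groups do not overlap, and with honokiol it was at 28.0 and 25.6 CPM, between them. hsp-12.3, of the small HSP12 group, fell by 0.92 on the log2 scale (edgeR adjusted p = 0.00803), averaging 5.15 ± 0.567 CPM in magnolol libraries and 9.70 ± 1.75 CPM in control libraries (SD, n = 3 each). That call was lost without magnolol 3 (edgeR adjusted p = 0.0642) and without control 1 (0.0542).

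Of the 4 other cytosolic HSP70 and HSP110 rows 1 rose with magnolol. hsp-110, a nucleotide exchange factor for HSP70, was at 447.9, 620.5 and 478.4 CPM in magnolol 1 to 3, against 344.4, 345.6 and 357.4 CPM in controls 1 to 3, and changed by 0.56 ± 0.14 (edgeR adjusted p = 0.0371). Magnolol 2 stands apart from the other magnolol libraries, and the edgeR adjusted p was 0.150 without it, 0.0732 without magnolol 3, and 0.135, 0.126 and 0.0792 without control 1, 2 or 3. The constitutive hsp-1 was not called, at 0.35 ± 0.16 with an edgeR adjusted p = 0.306.

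No row was called by edgeR with magnolol among HSP90 and its cochaperones (0 of 8), HSP40 and BAG cochaperones (0 of 8), the chaperonin CCT subunits (0 of 8) or the organelle chaperones (0 of 4). An unadjusted p under 0.05 in edgeR was found for 3, 3, 1 and 1 of these rows in the order given, and DESeq2 called 1 row in each of the HSP90 and the HSP40 lists. hsp-90 changed by 0.15 ± 0.10, the endoplasmic reticulum chaperone gene hsp-4 by 0.11 ± 0.10 and the mitochondrial HSP70 gene hsp-6 by 0.34 ± 0.14, none of them called. The regulators gave 0 calls of 3 in edgeR, DESeq2 and limma-voom, and 0 with an unadjusted p under 0.05. The transcript of hsf-1, the factor that activates heat shock genes, averaged 68.4 ± 6.66 CPM in magnolol libraries and 63.2 ± 1.29 CPM in control libraries (SD, n = 3 each), with a change of 0.11 ± 0.10 and a 95% confidence interval of -0.09 to 0.32. Transcript levels do not report the activity of this factor. The regulator hsb-1 was not analysed here.

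**Figure D4:**
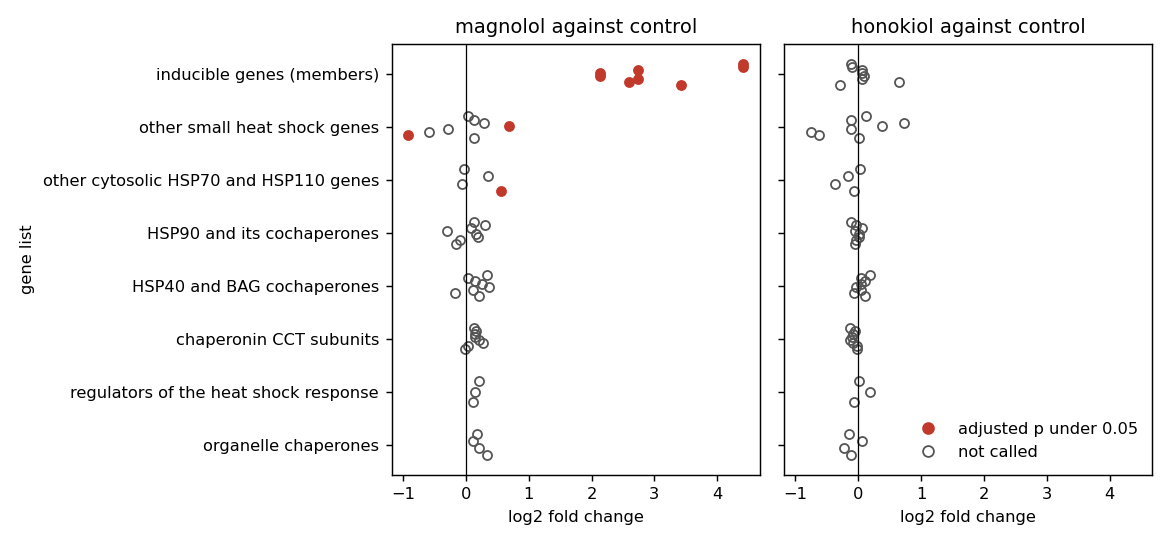
Log2 fold changes of the 8 heat shock rows and of the tested rows in 7 lists of related chaperone genes, for magnolol over control and honokiol over control. Filled red points passed the threshold: all 8 heat shock rows and 3 rows of the lists with magnolol, and none with honokiol.

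Changes with magnolol moved with gene length. Over 13927 rows that were not called, log2 changes and annotated exon length had a Spearman rho of 0.35, a description across genes that are not independent replicates. Uncalled rows of 400 to 700 bases, the length of the small heat shock genes, had a median change of -0.15, with 80% of them between -0.56 and 0.31. Those of 1900 to 2400 bases, the length of hsp-70 and F44E5.4, had a median of 0.06, with 80% between -0.22 and 0.32. Both ranges leave out called rows, so they do not show how called rows of such length change. The heat shock rows, at 2.14 to 4.42, lay above both ranges. hsp-110, with 2702 bases of exon, is closer, since uncalled rows of 2400 to 3000 bases had a median of 0.09 and 80% of them lay between -0.11 and 0.32. The part of length in the hsp-110 change was not tested. In the other comparisons Spearman rho was 0.46 for magnolol over honokiol (14123 uncalled rows) and -0.19 for honokiol over control (13834 uncalled rows). For magnolol over honokiol the median change was -0.19 at 400 to 700 bases and 0.14 at 2400 to 3000 bases.

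**Figure D5:**
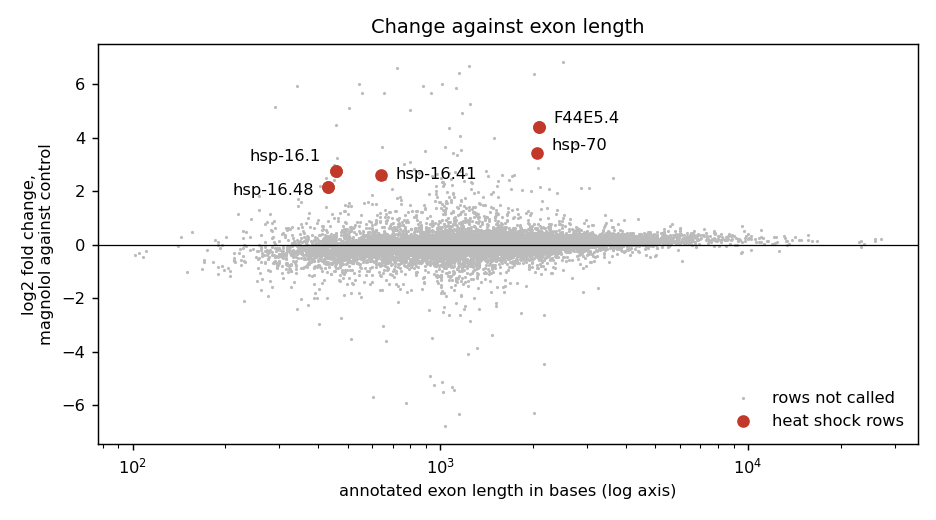
Log2 fold change of magnolol over control against annotated exon length (log axis, bases) for 13927 uncalled rows (grey) and the 8 heat shock rows (red, at the mean length of their loci). The short hsp-16 genes and the longer HSP70 genes all lie between 2.14 and 4.42, above the bulk of grey points at their length. Other called rows are not drawn.

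Genes lying next to the heat shock loci were read as well, chosen by position after the other results were known. They were the 2 nearest protein-coding genes with a single row on each side of each group of loci, at most 14230 bases away. Of 14 tested neighbours 0 rose with magnolol and 2 fell, beside 2.16% of all tested rows called higher and 0.702% called lower, and the changes ran from -0.80 to 0.59. The 2 that fell flank the hsp-16.1 and hsp-16.48 group: T27E4.7 by 0.80 and F21C10.10 by 0.58 on the log2 scale (edgeR adjusted p = 0.00610 and 0.0151). The first call was lost without magnolol 3 (edgeR adjusted p = 0.0543), the second without magnolol 2 or control 3 (0.0501 and 0.0598). With honokiol 1 of 14 neighbours was called, beside 3.43% of all tested rows. It was Y46H3A.5, which lies 5469 bases beyond hsp-16.41. It had 6.71 CPM in honokiol 1 and 8.87 CPM in honokiol 2, while controls 1 to 3 had 0.234, 1.25 and 0.529 CPM, and it changed by 3.53 ± 0.45 (edgeR adjusted p = 1.14e-04), or by 4.36 without control 2. With magnolol it was at 1.07, 0.741 and 1.22 CPM, not called against control. For magnolol over honokiol it was the 1 of 14 neighbours called (1.53% of all tested rows), lower by a log2 change of -2.94 ± 0.43 (edgeR adjusted p = 0.00121). Honokiol was thus higher than control at this neighbour, while the hsp-16.41 row itself was not called with honokiol.

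The 5 genes followed each other across the 8 libraries, with Pearson r of log2 CPM between 0.91 (hsp-70 and F44E5.4) and 0.98 (hsp-16.48 and hsp-70), a split that all of them share between the 3 magnolol libraries and the other 5. Likeness of other rows was measured as the mean of Pearson r to the 5 genes over the 8 libraries, and 26 of 16805 rows reached a mean r of 0.9. The 5 highest were Y94H6A.10 (0.965), clec-161 (0.964), tdpo-1 (0.963), F19B2.5 (0.952) and M02G9.4 (0.939). Y94H6A.10 averaged 193 ± 17.8 CPM in magnolol, 51.3 ± 0.827 CPM in honokiol and 39.9 ± 3.30 CPM in control, a rise of 2.27 ± 0.10 with magnolol over control. F19B2.5 averaged 63.3 ± 2.16 CPM in magnolol, 13.1 ± 0.815 CPM in honokiol and 14.6 ± 2.33 CPM in control, a rise of 2.11 ± 0.12. Both were called against control and against honokiol. The 5 rows were picked for likeness over these same libraries, so the direction of their change follows from that choice. tdpo-1 changed by 0.48 ± 0.10 with magnolol (edgeR adjusted p = 0.0182), a call lost without any 1 of the magnolol libraries or control 1, with edgeR adjusted p of 0.0594 to 0.0868. The C-type lectin gene clec-161, at 0.708 to 0.746 CPM with magnolol and at most 0.149 CPM elsewhere, and M02G9.4, under 1 CPM in every library, were not called in any comparison.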

How the data were processed

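RNA-seq of total RNA from worms gave 1 table of 8 libraries, which were grouped by title. The values are counts per row as deposited by the authors, without normalization. WBcel235 and DESeq2 are listed in the submitters' processing notes, without saying what either was used for. Aligner, counter and strand setting were not given in the sources used here.

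Rows were kept by filterByExpr and scaled by TMM, and group means over all 8 libraries were fitted with glmQLFit of edgeR 4.0.16 in R 4.3.3. Each of 3 contrasts was tested two-sided with glmQLFTest, with Benjamini-Hochberg adjustment over 16813 rows. SEs and 95% intervals come from the quasi-likelihood F statistic (5 residual and 9.35 prior degrees of freedom). CPM used TMM-scaled library sizes, and sums over a symbol's rows came from a fit with those rows summed. Likeness used log2(CPM + 0.5). The pipeline was tested on simulated data. Ratios were tested by exact permutation (scipy 1.17.1).

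Members, lists and tests were chosen with earlier results of these data known. Besides the members, the genes named were up to 4 called rows of each list, fixed reporters (hsp-16.2, hsf-1, hsb-1, hsp-1, hsp-90, hsp-4 and hsp-6), and the 5 most alike rows. Neighbours were added by position. The fits were repeated with DESeq2 1.42.0, with limma-voom (limma 3.58.1), with size factors or upper-quartile scaling in edgeR, without a filter or with 50 counts in 3 libraries, with only 2 groups in a fit, with a replicate block, with rows of a symbol summed, and without each library. Plots used matplotlib 3.10.9.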

Additional observations from a re-analysis of the deposited data

How the results depend on the processing

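Against control, the magnolol change of each of the 8 heat shock rows kept its direction and its call under all 17 alternatives. Between the isomers 134 of 136 values did so, and the 2 others were hsp-16.41 without magnolol 3 and without honokiol 2. The count of heat shock rows called without 1 library each was 8 to 8 for magnolol over control, 7 to 8 for magnolol over honokiol and 0 to 0 for honokiol over control. With the rows of a symbol summed it was 5 of 5 genes for magnolol over control and 5 of 5 over honokiol, fewer because there are fewer rows. The sign of the honokiol change turned in 11 of 136 values, all uncalled. For the F44E5.4 rows gene8423 and gene8424 it was 0.24 and 0.20 in limma-voom, 0.08 and 0.03 without honokiol 2 and 0.89 and 0.83 without control 2, and without 1 library each it ran from -0.48 to 0.89 and -0.50 to 0.83. For hsp-16.48 it was -0.28 and -0.30 without honokiol 2 (ranges to 0.38 and 0.37), for hsp-16.1 -0.16 and -0.16 without control 1 (ranges to 0.20 and 0.22), and for hsp-70 0.15 without control 3 (range from -0.56).

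The background of all rows called moved more. For magnolol over control it was 482, against 762 in DESeq2 and 294 (without magnolol 3) to 522 without 1 library each. For magnolol over honokiol it was 257, against 576 without a low-count filter, 633 in DESeq2 and 127 (without honokiol 2) to 574 (without honokiol 1) without 1 library each, with 162 without magnolol 3. For honokiol over control it was 577, with 412 to 590 without 1 library each. The cause was not tested. Same-numbered libraries showed little shared deviation (Pearson r of -0.04, 0.02 and -0.05 for magnolol and control 1 to 3). For honokiol 1 and 2 it was -0.13 and -0.17 with magnolol, and 0.09 and 0.02 with control. The 2 honokiol libraries deviate from their mean by opposite amounts. Each honokiol value is therefore the other honokiol library's value with its sign turned, and it gives no separate information on pairing. Such values cannot exclude that same-numbered libraries share a culture or a day. The numbers are those of the titles, and the library names skip a number between honokiol 1 and honokiol 2. By library name, honokiol 2 could instead belong with magnolol 3 and control 3. The replicate block used the title numbers, so it may match honokiol 2 wrongly. With the replicate number as a block, 8, 0 and 8 heat shock rows were called for magnolol over control, honokiol over control and magnolol over honokiol, among 343, 453 and 163 of all rows, and hsp-110 and tdpo-1 had edgeR adjusted p = 0.127 and 0.0529. Counts of 20 to 61 for hsp-16.41 and 21 to 49 for hsp-70 in honokiol and control libraries limit the precision of their folds.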
